A study of Mus musculus with 20 samples.

Results

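The respiratory chain of mouse temporomandibular joint (TMJ) tissue was examined at its last electron-carrying steps, complex III with cytochrome c and complex IV, and at ATP synthase. Members were the genes whose symbols begin with Uqcr, with Cox followed by 4, 5, 6, 7 or 8, or with Atp5, the genes of the mitochondrial genome for these complexes, and *Cyc1* and *Cycs*. This gave 53 of the 54532 genes in the count table, of which 11 belong to complex III with cytochrome c, 22 to complex IV and 20 to ATP synthase. The nuclear genome encodes 47 of them and the mitochondrial genome 6. Symbols ending in -ps, which mark pseudogenes, were left out (7 genes). RNA had been sequenced from the condylar head, the rounded end of the lower jaw that forms the joint, including some subchondral bone.

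All animals carried the *Loxl2* fl/fl alleles and Acan-CreERT2, a Cre recombinase that tamoxifen activates and that the promoter of the cartilage gene aggrecan drives, so that cells without aggrecan should keep *Loxl2*. The 8 control libraries came from mice given corn oil, and the 12 libraries labelled LOXL2_KO from mice given tamoxifen at 75 mg/kg on 5 consecutive days and monthly afterwards. Mice of both sexes were 6 months old at the start and were taken after 4 months. Tamoxifen and the deletion cannot be told apart in this design.

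Complex III passes electrons from ubiquinol to the soluble carrier cytochrome c, complex IV hands them from cytochrome c to oxygen, and both pump protons across the inner mitochondrial membrane. ATP synthase lets the protons flow back and uses the flow to turn a rotor that makes ATP. Catalytic subunits of complex IV and cytochrome b come from mitochondrial DNA, most other subunits from the nucleus. Several subunits of complex IV exist as a muscle isoform and a ubiquitous isoform encoded by different genes. Skeletal muscle is rich in all 3 complexes, whereas cartilage lives largely on glycolysis.

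*Loxl2* itself was not lower in the libraries labelled LOXL2_KO. Its level in CPM, counts scaled to the size of the library, averaged 64.5 ± 30.9 over the 8 control libraries and 101 ± 26.9 over the 12 others (mean ± SD), a higher level in those others (exact permutation p = 0.0127, two-sided), so the direction of every comparison below is that of the labels. Library totals ran from 11153820 to 27045668 counts. The tissue held much muscle RNA: the 22 skeletal muscle markers summed to between 74052 and 238964 CPM in control (median 112204), against 141 to 3456 CPM (median 2482) for the 15 chondrocyte markers. Control replicates 8 and 6 and LOXL2_KO replicate 5 had the lowest chondrocyte scores (mean log2 CPM of the tested markers) of all 20 libraries. Below, low in chondrocyte markers refers to this score. By the sum only control replicate 8 stood apart. Control replicate 6 and LOXL2_KO replicate 5 summed to 2086 and 2103 CPM, above control replicates 1 and 3 (1783 and 1712 CPM). In control replicate 6 *Prg4*, a marker of the same list, was at 1822 CPM, its highest control value. In control replicate 8 *Acan* was at 2.22 CPM and *Col2a1* at 1.68 CPM, and *Col10a1* and *Snorc* were at 0, while *Comp*, another cartilage matrix gene, was at 31.8 CPM. Without these 3 libraries *Loxl2* was 78.5 ± 19.5 CPM in the 6 remaining control libraries and 102 ± 27.9 CPM in the 11 others (exact permutation p = 0.0897). Results that rest on these 3 libraries are given with and without them.

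Most members were somewhat lower in the libraries labelled knockout, and few of these differences passed the test. Of the 49 members that passed the filter on low counts, 5 fell (*Uqcrc2*, *Uqcrfs1*, *Atp5c1*, *Atp5f1* and *Atp5s*) and 1 rose (*Cox6a1*) at an adjusted p under 0.05, and 43 were not called. Over all 15984 genes tested, 11% were called lower and 12% higher, so the 10.2% of members called lower is near the background. The log2 fold change was negative for 45 of the 49 members (91.8%) against 51.9% of all tested genes, and its median was −0.40 against −0.02. An unadjusted p under 0.05 was reached by 28 members with a lower and 2 with a higher level. By the DESeq2 Wald test 9 of the 51 members with any count were called lower (17.6%) and 1 higher. Called lower and higher were 10.7% and 11.6% of all genes that received an adjusted p, and 5.94% of all 34192 genes with a fold change were called lower. With library totals in place of TMM scaling, 849 genes were called lower and 2188 higher (1755 and 1918 with TMM) and the median of all genes moved to 0.12, while the members' median was −0.25 with 3 called lower and 1 higher. Leaving out 1 library moved the count of lower members to between 2 and 18: 9 to 18 without control replicate 1 or 5 or LOXL2_KO replicate 5, 11 or 12, and 2 or 3 without control replicate 3, 4, 6, 7 or 8 or LOXL2_KO replicate 2, 4, 6, 7, 9 or 10. Without the 3 libraries that have the lowest chondrocyte scores, 2 members were called lower (*Uqcrc2* and *Atp5s*) and 1 higher (*Cox6a1*), with a median of −0.30. The 4.08% of members called lower stood beside 6.32% of all genes in that fit, where 1044 of 16525 were lower and 1292 higher.

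**Figure D1:**
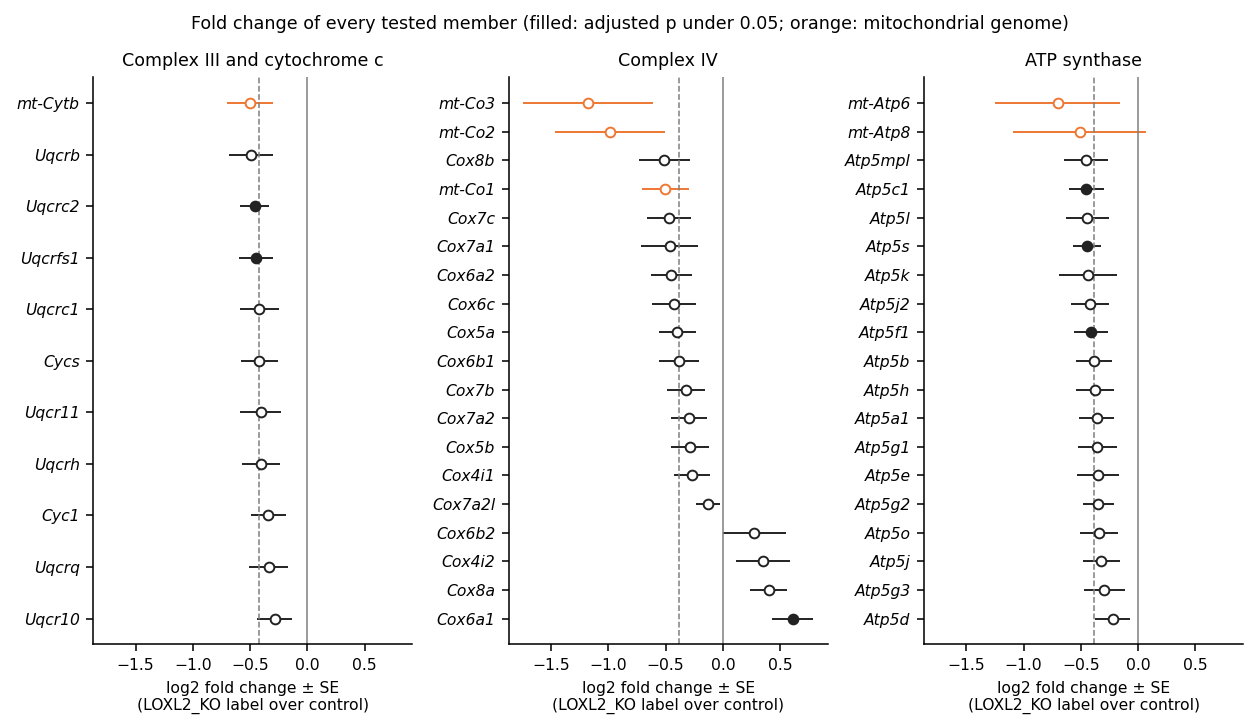
Log2 fold change (libraries labelled LOXL2_KO over control) with its standard error for each of the 49 tested members, by complex; filled points passed an adjusted p under 0.05, orange marks the mitochondrial genome, and the dashed line is the median of the panel. All 11 members of complex III and all 19 tested members of ATP synthase lie left of 0, while 4 of the 19 tested members of complex IV lie right of it.

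The members moved up and down together between libraries. Among the 43 tested nuclear members, control replicate 6 held the highest control value for 35, and LOXL2_KO replicate 8 held the lowest value of its group for 38. Their summed level ran from 17252 CPM (control replicate 1) to 31364 CPM (replicate 6) in control, with a median of 21879 CPM. In the libraries labelled knockout it ran from 10246 CPM (replicate 8) to 25032 CPM (replicate 5), with a median of 16948 CPM, so the ranges overlapped. The complexes kept nearly the same parts of this sum. Complex III with cytochrome c made up 20.0% to 21.8% of it in control and 19.7% to 20.96% in the other group, complex IV 22.1% to 24.9% and 21.9% to 26.5%, and ATP synthase 54.4% to 56.8% and 53.7% to 57.6%.

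Markers of other cells also differed between the groups, and their relation to these sums over the libraries was not tested. Of the 22 skeletal muscle markers 11 were called lower, beside 11% of all genes, and 0 higher by edgeR (0 higher also at an unadjusted p under 0.05). The median log2 fold change was −0.57. Without the 3 libraries that have the lowest chondrocyte scores 3 of the 22 were called lower (median −0.45), beside 6.32% of all genes. With library totals in place of TMM scaling 7 were called lower. The sum of the 22 muscle markers was 52195 to 128106 CPM in the libraries labelled knockout (median 86375). Of the 14 osteoclast markers 12 were called higher (median 2.46), beside 12% of all genes, and 11 without the 3 libraries (median 2.31). The sum of the osteoclast markers went from 296 to 1684 CPM in control to 812 to 8630 CPM. With the skeletal muscle score as a covariate no member was called in the edgeR fit (2 lower and 0 higher at an unadjusted p under 0.05), and the members' median was −0.13. Calls were few over all genes in that fit, with 178 of 15984 lower (1.11%) and 212 higher. With the osteoclast score as a covariate no member was called either (0 in each direction at an unadjusted p under 0.05), the median was 0.10 and 43 of 49 were positive, but none of the 15984 genes was called in that fit. Both scores are built from genes that themselves differed between the groups, so these fits cannot separate a score from the label. The osteoclast score was 3.09 to 5.29 in control and 4.30 to 7.32 in the libraries labelled knockout. In bulk tissue fewer cells of a type and less RNA per cell cannot be told apart. The part of muscle and bone cells in these differences was not tested.

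**Figure D2:**
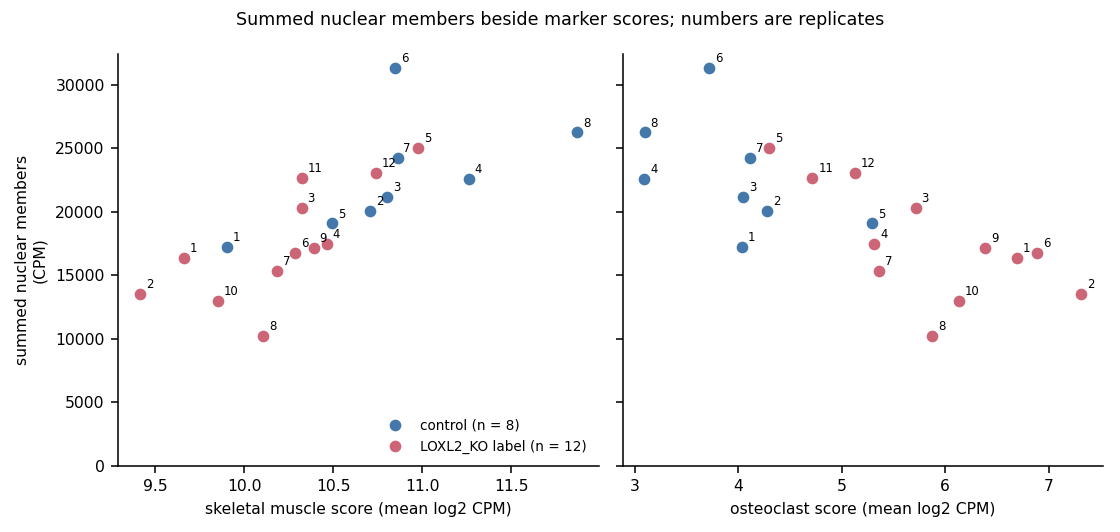
Summed level of the nuclear members (CPM, vertical axis from 0) against the skeletal muscle score (left) and the osteoclast score (right), each the mean log2 CPM of the list's tested genes, with 1 point per library labelled by its replicate number. The libraries labelled knockout lie toward low muscle and high osteoclast scores, and LOXL2_KO replicate 8 has the lowest sum (10246 CPM) while control replicate 6 has the highest (31364 CPM).

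In complex III core protein 2 and the Rieske subunit were the only members called by edgeR. *Uqcrc2* (chr7:120635176-120659524, GRCm38/mm10, plus strand) encodes core protein 2, which faces the matrix. Its level was 438 to 626 CPM in control (median 539.8) and 261 to 557 CPM in the libraries labelled knockout (median 365). Of those 12 libraries 10 lay below the lowest control and the ranges overlapped only through the others. The gene fell by 0.46 on the log2 scale (SE 0.13, adjusted p = 0.0137), and the call held in each of the 20 fits that left out 1 library. *Uqcrfs1* (chr13:30540308-30545362, minus strand), the iron-sulfur subunit that takes the electron from ubiquinol, was 509.6 to 877 CPM in control (median 629.5) and 301 to 705 CPM in the other group (median 484). It fell by 0.45 on the log2 scale (SE 0.15, adjusted p = 0.0325), with 8 libraries below the lowest control. This call was lost without control replicate 4, 6 or 8 or without LOXL2_KO replicate 2, 7 or 10 (adjusted p = 0.0514 to 0.0850), and without the 3 libraries low in chondrocyte markers (adjusted p = 0.0856).

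The other 9 members of complex III did not pass. *Uqcrb*, a small subunit beside the ubiquinone site, was 146 to 329 CPM in control (median 205) and 68.9 to 239 CPM in the libraries labelled knockout (median 149.8), a log2 difference of −0.49 (SE 0.19, adjusted p = 0.0685). *Cycs*, cytochrome c, was 340.0 to 549.9 CPM (median 428) and 166 to 473 CPM (median 320.1), a log2 difference of −0.42 (SE 0.16, adjusted p = 0.0692). For both genes 10 of the 12 libraries labelled knockout lay below the control median. The smallest difference of the complex was that of *Uqcr10*, another small subunit, at 169.8 to 369 CPM in control (median 232) and 119 to 262 CPM in the other group (median 189.6). Its log2 difference was −0.29 (SE 0.15, adjusted p = 0.171). *Uqcrc1* (core protein 1), *Cyc1* (cytochrome c1), *Uqcrh*, *Uqcr11* and *Uqcrq* had log2 differences between −0.42 and −0.34. Per kb of exon the median control level of *Uqcrfs1* was 462 CPM and that of *Cycs* 126 CPM, the highest and lowest among the nuclear members of this complex.

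Complex IV was the only complex of the 3 with members on both sides of 0. By edgeR 0 of its 19 tested members were called lower (8 at an unadjusted p under 0.05, and 2 by the DESeq2 Wald test) and 1 was called higher, with a median log2 fold change of −0.31 over the 16 tested nuclear members. The isoform genes of this complex stood on different sides of 0. *Cox6a1*, the ubiquitous form of subunit 6A, rose, whereas its muscle counterpart *Cox6a2* was lower without passing the test. The same order held for *Cox8a* and *Cox8b*, neither of which passed.

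Windows of 250 bases at the annotated start of isoform genes are shown for *Cox6a1*, the member called higher, and for *Cox8a* and *Cox8b*, whose ratio differed between the groups. No window was matched for *Cox6a2*. Capitals mark matches, on either strand, to an NRF1 core (GCGCATGC), an ETS core (CCGGAAG), an E-box (CAGCTG) or a TATA box (TATAAA). The sequences are from RefSeq (GRCm38.p6), 5′ to 3′ on the gene's strand, at chr5:115348959-115349208 for *Cox6a1* (minus), chr19:7217617-7217866 for *Cox8a* (minus) and chr7:140900447-140900696 for *Cox8b* (minus).
Cox6a1: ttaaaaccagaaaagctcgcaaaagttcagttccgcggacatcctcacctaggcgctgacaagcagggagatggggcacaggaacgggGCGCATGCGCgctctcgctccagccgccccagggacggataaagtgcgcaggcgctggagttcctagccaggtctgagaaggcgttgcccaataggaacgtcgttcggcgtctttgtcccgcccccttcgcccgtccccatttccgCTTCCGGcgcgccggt
Cox8a: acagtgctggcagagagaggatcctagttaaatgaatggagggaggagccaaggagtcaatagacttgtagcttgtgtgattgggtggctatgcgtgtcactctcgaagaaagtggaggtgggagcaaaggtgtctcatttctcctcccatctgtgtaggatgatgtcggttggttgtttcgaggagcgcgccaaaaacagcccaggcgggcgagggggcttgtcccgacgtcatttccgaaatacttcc
Cox8b: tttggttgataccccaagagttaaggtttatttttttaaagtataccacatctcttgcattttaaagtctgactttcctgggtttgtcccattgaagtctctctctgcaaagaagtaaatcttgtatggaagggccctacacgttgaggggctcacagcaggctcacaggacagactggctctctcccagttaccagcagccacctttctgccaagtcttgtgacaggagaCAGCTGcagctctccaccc
*Cox6a1* held the NRF1 core on both strands in overlapping letters and the ETS core on the strand opposite to the gene, and *Cox8b* held 1 E-box. The end of the *Cox6a1* window, with the ETS core, overlaps the GENCODE span of the gene, which reaches chr5:115348981. The *Cox8a* window held none of these letters. Promoter sequences were matched for 32 of the 46 nuclear symbols, and among these the NRF1 core was in 5, the ETS core in 8, the E-box in 2 and the TATA box in 2. The shares were 15.6%, 25.0%, 6.25% and 6.25%, against 2.26%, 6.91%, 13.0% and 12.4% of all 32851 promoter windows of this length. The units differ slightly, since the members were counted per gene (32 genes with 35 windows) and the background per window. GC content was 62.8% for *Cox6a1*, 52.8% for *Cox8a* and 47.2% for *Cox8b*. A match is a description of the letters and was not tested as a site.

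*Cox6a1* (chr5:115345642-115348981, minus strand) was 34.3 to 84.2 CPM in control (median 54.8) and 47.0 to 117 CPM in the libraries labelled knockout (median 82.9). The level was above the control median in 11 of 12 of these libraries and above the highest control in 6. It rose by 0.61 on the log2 scale (SE 0.18, adjusted p = 0.0186), and this call held in each of the 20 fits that left out 1 library. *Cox6a2* (chr7:128205435-128206387, minus strand), the form of heart and skeletal muscle, was 825 to 1611 CPM in control (median 1057) and 407 to 1223 CPM in the other group (median 764). Its log2 difference was −0.45 (SE 0.18, adjusted p = 0.0698), with 8 libraries below the lowest control.

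*Cox8a* was 40.7 to 99.1 CPM in control (median 62.0) and 52.4 to 112 CPM in the libraries labelled knockout (median 81.8), a log2 difference of 0.40 (SE 0.16, adjusted p = 0.0768). Its muscle counterpart *Cox8b* was 206 to 561 CPM (median 309) and 96.6 to 385 CPM (median 220.4), a log2 difference of −0.51 (SE 0.22, adjusted p = 0.0982). For *Cox8a* 11 of 12 libraries lay above the control median, and for *Cox8b* 10 of 12 lay below it. The genes of subunit 7A had differences of the same sign, and neither passed. *Cox7a1*, the muscle form, was 156 to 389.8 CPM in control (median 278) and 82.7 to 379 CPM in the other group (median 196), a log2 difference of −0.46 (SE 0.25, adjusted p = 0.181). *Cox7a2*, the ubiquitous form, was 148 to 253 CPM (median 188) and 88.5 to 226 CPM (median 150.0), a log2 difference of −0.30 (SE 0.16, adjusted p = 0.173).

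**Figure D3:**
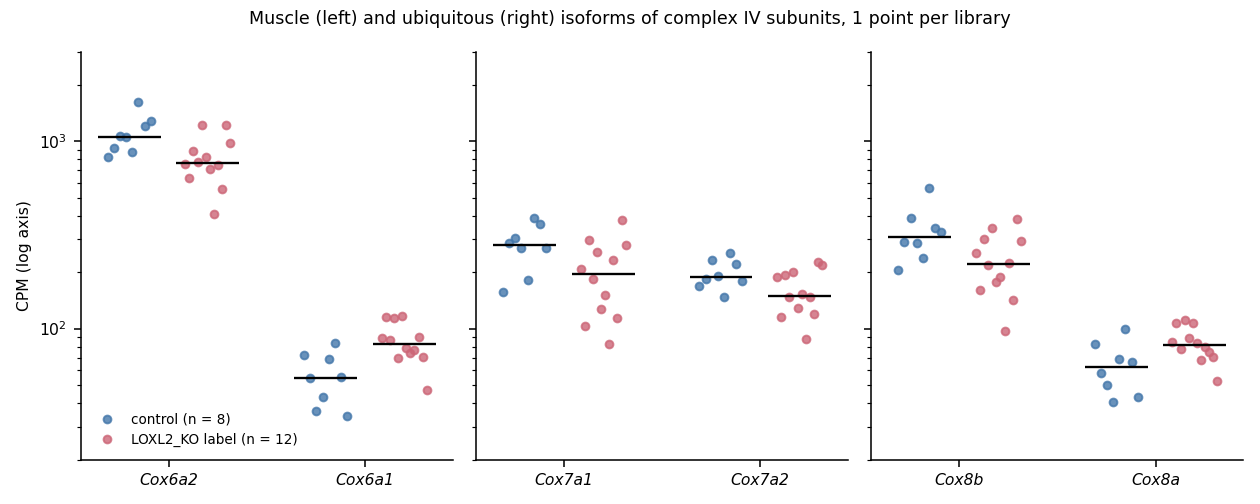
Level in CPM (log axis) of the muscle isoform (left in each panel) and the ubiquitous isoform (right) of subunits 6A, 7A and 8 of complex IV, with 1 point per library and the group median as a line. The muscle isoforms of all 3 subunits and Cox7a2 sit lower in the libraries labelled LOXL2_KO, and Cox6a1 and Cox8a sit higher.

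The ratio of the isoforms within each library was tested for 5 pairs by an exact two-sided permutation test, with p-values adjusted over the 5. The log2 ratio of *Cox6a2* to *Cox6a1* was 3.47 to 5.15 in control (median 4.31) and 2.43 to 4.32 in the libraries labelled knockout (median 3.10). Of these 12 libraries 11 were below the control median and 9 below the lowest control. The mean ratio was 4.28 ± 0.57 (SD, n = 8) and 3.19 ± 0.65 (SD, n = 12), a difference of −1.09 (exact permutation, adjusted p = 0.00901). The log2 ratio of *Cox8b* to *Cox8a* was 1.29 to 2.92 in control (median 2.41) and 0.50 to 2.45 in the other group (median 1.31). Its means were 2.34 ± 0.57 (SD, n = 8) and 1.37 ± 0.69 (SD, n = 12), a difference of −0.96 (exact permutation, adjusted p = 0.0138). Here 10 of 12 libraries were below the control median and 6 below the lowest control. Without the 3 libraries low in chondrocyte markers the first of these differences was −1.04 (exact permutation, adjusted p = 0.0242) and the second −0.90 (adjusted p = 0.0523), so only the first kept its call. The second also lost its call on a difference of medians (−1.10, adjusted p = 0.0596).

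The other 3 pairs did not pass. For *Cox7a1* to *Cox7a2* the mean log2 ratio was 0.45 ± 0.26 (SD) in the 8 control libraries and 0.23 ± 0.32 in the 12 others, a difference of −0.22 (exact permutation, adjusted p = 0.160). *Cox4i2*, the form of subunit 4 known from lung and from low oxygen, to *Cox4i1*, the general form, had a mean log2 ratio of −6.66 ± 0.59 and −6.11 ± 0.54, a difference of 0.56 (exact permutation, adjusted p = 0.0638). *Atp5g1* to *Atp5g3*, which encode the same mature c subunit of ATP synthase, had −0.20 ± 0.16 and −0.28 ± 0.10, a difference of −0.08 (exact permutation, adjusted p = 0.201). The *Cox4i2* pair reached an adjusted p of 0.0237 to 0.0491 in 5 of the 20 tests that left out 1 library, and the *Cox7a1* pair 0.0478 without control replicate 1. Per kb of exon *Cox6a2* was 95.5% of both forms in the median control and 90.0% in the median library of the other group, *Cox8b* 90.3% and 81.1%, and *Cox7a1* 72.0% and 67.5%, so the muscle form prevailed in both groups.

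**Figure D4:**
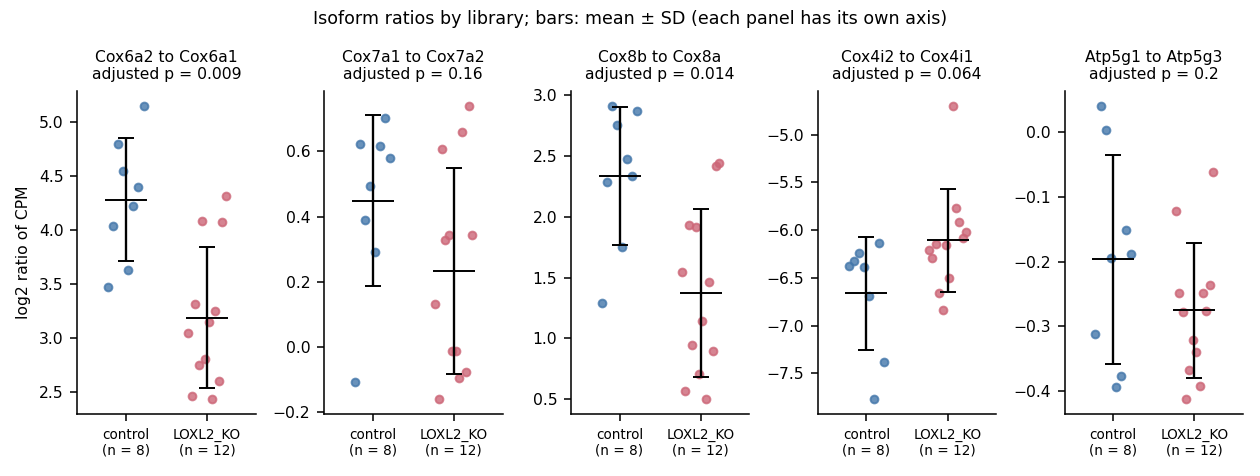
Log2 ratio of the CPM of isoform genes for 5 pairs, with 1 point per library, mean ± SD as bars and an axis of its own in each panel. The ratio of Cox6a2 to Cox6a1 and that of Cox8b to Cox8a are lower in the libraries labelled LOXL2_KO (adjusted p = 0.00901 and 0.0138), while the other 3 pairs do not pass.

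*Cox4i1* itself was 636 to 1237 CPM in control (median 845) and 395 to 948 CPM in the libraries labelled knockout (median 723), a log2 difference of −0.27 (SE 0.16, adjusted p = 0.221). *Cox4i2* was low throughout, at 3.66 to 10.8 CPM (median 6.57) and 4.59 to 13.3 CPM (median 7.41), a log2 difference of 0.35 (SE 0.24, adjusted p = 0.298). Among the members of complex IV outside the tested pairs, *Cox7c* had the smallest p. It was 263 to 654 CPM in control (median 353) and 131 to 412 CPM in the other group (median 265), a log2 difference of −0.47 (SE 0.19, adjusted p = 0.0757). The subunits *Cox5a*, *Cox5b*, *Cox6b1*, *Cox6c* and *Cox7b*, had log2 differences between −0.42 and −0.29, all short of the threshold. *Cox7a2l*, a factor that joins complexes III and IV into supercomplexes, stood nearest to 0, with medians of 164 and 165 CPM and a log2 difference of −0.13 (SE 0.10, adjusted p = 0.395), which was 0.020 with library totals in place of TMM scaling.

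The testis isoforms were at or near the floor. *Cox6b2* was 0.459 to 2.16 CPM in control (median 1.63) and 0.643 to 2.87 CPM in the libraries labelled knockout (median 1.95), a log2 difference of 0.27 (SE 0.27, adjusted p = 0.490). The 4 members that did not pass the filter were *Cox8c*, which had no count in any library, *Cox7b2*, which reached at most 0.338 CPM, *Cox6c2*, annotated as a processed pseudogene, at no more than 1.38 CPM, and a further identifier of *Atp5o* with no count. A count of 3 corresponds to 0.0964 to 0.246 CPM, depending on the library, and levels below this rest on fewer than 3 counts.

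The 3 called members of the ATP synthase list were *Atp5c1*, *Atp5f1* and *Atp5s*. Of these *Atp5c1* and *Atp5f1* encode subunits from different parts of the machine, and *Atp5s* was listed as a factor. *Atp5c1* (chr2:10056016-10080510, minus strand), the gamma subunit that forms the central shaft, was 606 to 997 CPM in control (median 812) and 339 to 851 CPM in the libraries labelled knockout (median 546). It fell by 0.45 on the log2 scale (SE 0.15, adjusted p = 0.0363), and 11 of 12 libraries were below the control median. *Atp5f1* (chr3:105942698-105960099, minus strand), subunit b of the stalk that holds the head still, was 579 to 956 CPM (median 772) and 329 to 783 CPM (median 545). It fell by 0.41 (log2, SE 0.15, adjusted p = 0.0471). Both calls lay close to the threshold: *Atp5c1* lost its call in 11 and *Atp5f1* in 14 of the 20 fits that left out 1 library, with adjusted p up to 0.0870 and 0.112, both without control replicate 6. Without the 3 libraries low in chondrocyte markers their adjusted p was 0.0963 and 0.115.

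*Atp5s* (chr12:69724950-69744660, plus strand), coupling factor B, was the least abundant of the called members. It was 10.6 to 18.8 CPM in control (median 15.7) and 8.90 to 16.1 CPM in the other group (median 10.9). It fell by 0.44 on the log2 scale (SE 0.12, adjusted p = 0.0135), with 11 of 12 libraries below the control median and 5 below the lowest control. Its call held in all 20 fits that left out 1 library and without the 3 libraries low in chondrocyte markers (adjusted p = 0.0394).

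Of the ring of c subunits, which turns as protons pass, *Atp5g2* had the smallest p. It was 148 to 296 CPM in control (median 186) and 111 to 207 CPM in the libraries labelled knockout (median 168), a log2 difference of −0.35 (SE 0.13, adjusted p = 0.0641). *Atp5g1* was 433 to 848 CPM (median 526) and 243 to 694 CPM (median 431), a log2 difference of −0.36 (SE 0.17, adjusted p = 0.129). *Atp5g3* was 503 to 1101 CPM (median 617) and 319.7 to 897 CPM (median 525), a log2 difference of −0.29 (SE 0.18, adjusted p = 0.235). The 3 genes of the ring thus had the same sign and did not pass. In the catalytic head, *Atp5a1* and *Atp5b*, the alpha and beta subunits, were the most abundant nuclear members in CPM, with control medians of 2969 and 3563 CPM, and had log2 differences of −0.36 and −0.39 (adjusted p = 0.0917 and 0.0757). *Atp5d*, the delta subunit, had the largest p of the complex among nuclear genes, at 383 to 707 CPM in control (median 469.6) and 261 to 629 CPM in the other group (median 419), a log2 difference of −0.22 (SE 0.15, adjusted p = 0.306).

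The remaining stalk and membrane subunits (*Atp5h*, *Atp5j*, *Atp5o*, *Atp5j2*, *Atp5k*, *Atp5l* and *Atp5mpl*) and *Atp5e* had log2 differences from −0.46 to −0.32, none of which passed. Reads of some of them may be shared with pseudogene copies. Of the 43 tested nuclear members, 5 had another annotated gene with at least 95% identity over at least 50% of the transcript. The counts of the copies of *Atp5l* came to 31.5% of its own counts, almost all in *Gm10221*, which is identical to it over 309 bases. For *Atp5h* the copy *Gm10250* (99.0% identity over 485 bases) held 15.5%. The log2 differences of *Gm10221* (−0.48, adjusted p = 0.0541) and *Gm10250* (−0.34, adjusted p = 0.133) had the sign of their parent genes and did not pass. How reads with several positions were counted was not stated.

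The 6 members of the mitochondrial genome all had negative log2 fold changes (median −0.61). None was called by edgeR, 3 had an unadjusted p under 0.05, and the DESeq2 Wald test called 2 of them lower. Without the 3 libraries low in chondrocyte markers the median was −0.27, with 4 of the 6 negative and none called. Counts of the whole mitochondrial genome made up 17.84% ± 2.78 of the total in the 8 control libraries and 13.57% ± 3.03 in the 12 others (mean ± SD). The means differed (exact permutation p = 0.00530, two-sided), while the ranges, 15.2% to 23.1% and 9.06% to 18.3%, overlapped. Without the 3 libraries the share was 16.7% ± 1.70 in 6 control libraries and 13.3% ± 3.06 in 11 others (exact permutation p = 0.0297). Their levels split into 3 ranges that do not match the transcripts' roles. *mt-Co1*, the catalytic core of complex IV, was 57211 to 98532 CPM in control (median 66219.9) and 30128 to 83263 CPM in the other group (median 50778). *mt-Cytb*, cytochrome b of complex III, was 24095 to 43607 CPM (median 28655) and 12118 to 33851 CPM (median 21123). Their log2 differences were −0.50 (SE 0.21, adjusted p = 0.0812) and −0.50 (SE 0.20, adjusted p = 0.0730). For both genes 10 of the 12 libraries labelled knockout were below the control median, and 9 and 8 were below the lowest control.

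*mt-Co2*, which receives electrons from cytochrome c, and *mt-Co3* sat far lower than *mt-Co1*. *mt-Co2* was 181 to 2039.8 CPM in control (median 451) and 172 to 1279 CPM in the libraries labelled knockout (median 239), a log2 difference of −0.98 (SE 0.48, adjusted p = 0.141). *mt-Co3* was 164 to 2479 CPM (median 354) and 122 to 1584 CPM (median 273), a log2 difference of −1.18 (SE 0.56, adjusted p = 0.133). Per kb the control median was 42861 CPM for *mt-Co1* and 659.8 and 452 CPM for these 2 genes. The highest values of both came from the libraries lowest in chondrocyte markers: control replicates 6 and 8 held 2039.8 and 1601 CPM of *mt-Co2* and 2479 and 2474 CPM of *mt-Co3*, and LOXL2_KO replicate 5 held the highest values of its group. Without these 3 libraries the log2 differences were −0.30 and −0.25 (adjusted p = 0.539 and 0.657).

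The proton channel subunit *mt-Atp6* was 135 to 3214 CPM in control (median 661) and 110.0 to 1244 CPM in the other group (median 505), a log2 difference of −0.70 (SE 0.54, adjusted p = 0.365). *mt-Atp8*, a small membrane subunit, was 0.477 to 11.3 CPM (median 2.21) and 0.463 to 5.88 CPM (median 1.74), a log2 difference of −0.51 (SE 0.58, adjusted p = 0.554). Control replicate 8 held the highest value of both. Without the 3 libraries low in chondrocyte markers both differences turned positive, at 0.15 and 0.25 (adjusted p = 0.874 and 0.810).

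**Figure D5:**
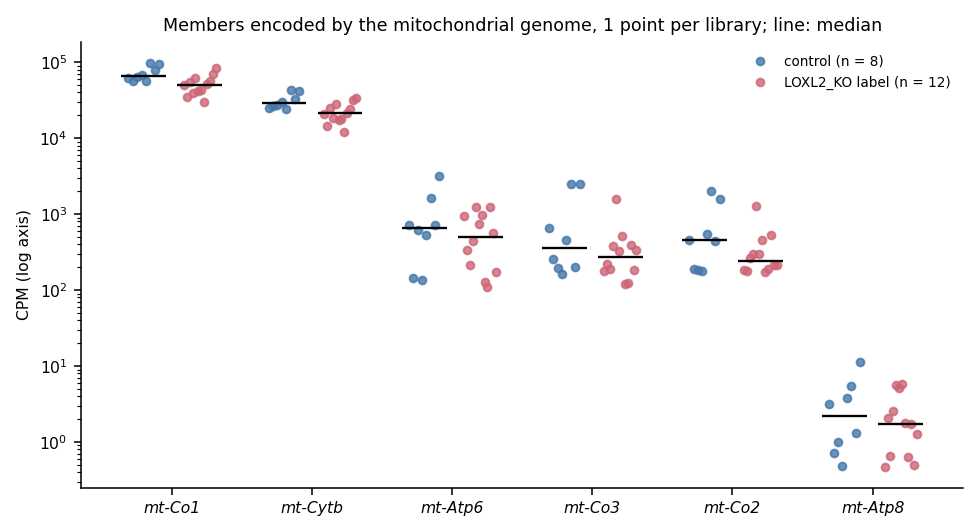
Level in CPM (log axis) of the 6 members encoded by the mitochondrial genome, with 1 point per library and the group median as a line. mt-Co1 and mt-Cytb lie at or above 12118 CPM in every library, mt-Atp6, mt-Co3 and mt-Co2 between 110.0 and 3214 CPM, and mt-Atp8 at or below 11.3 CPM.

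The 4 low genes share their sequence, whole or in part, with an annotated nuclear copy. *mt-Co2* matched *Gm28661*, an unprocessed pseudogene on chromosome 1, over 681 of its 684 bases at 100% identity, *mt-Atp6* matched *Gm10925* over 678 of 681 at 100%, and *mt-Co3* matched *Gm28437* over 783 of 784 at 100%. *mt-Atp8* shares its last 43 bases with *Gm10925*, and it also overlaps *mt-Atp6* on the mitochondrial genome. *mt-Cytb* was closest to *Gm11410* at 92.9% over 1142 bases, and *mt-Co1* to *Gm13340* at 97.6% over 1545 bases, with 99.8% to *Gm29216* over 483 bases. A stretch of 60 bases of the copied *mt-Co2* and of the less closely copied *mt-Cytb*, each beside its copy, shows the contrast, with capitals at the bases that differ (GRCm38, 5′ to 3′ on the gene's strand, at chrM:7073-7132, chr1:24615446-24615505, chrM:14206-14265 and chr4:80004050-80004109).
mt-Co2: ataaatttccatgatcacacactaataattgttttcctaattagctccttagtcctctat
Gm28661: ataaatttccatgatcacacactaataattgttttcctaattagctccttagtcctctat
mt-Cytb: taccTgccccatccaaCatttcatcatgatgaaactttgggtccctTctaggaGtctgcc
Gm11410: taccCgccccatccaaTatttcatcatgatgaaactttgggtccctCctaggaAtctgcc
The *mt-Co2* stretch has 0 differences from its copy and the *mt-Cytb* stretch 4. The copies held counts of their own: *Gm28661* 48.5% of the counts of *mt-Co2*, *Gm10925* 34.4% of those of *mt-Atp6* and *Gm28437* 29.8% of those of *mt-Co3*, summed over the 20 libraries, whereas *Gm11410* had 0 counts. Since the handling of reads with several positions was not stated, the levels and differences of *mt-Co2*, *mt-Co3*, *mt-Atp6* and *mt-Atp8* are uncertain, and the part of these copies in the low levels was not tested.

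Among 81 tested genes, in 7 lists, that build, regulate or feed the complexes, 26 were called lower and 2 higher by edgeR, where 11% and 12% of all genes were. The share called lower ran from 19.2% of the complex IV assembly factors to 100% of the 4 genes of complex II (25% without the 3 libraries low in chondrocyte markers). The counts of 26 and 2 were 13 and 3 with library totals in place of TMM scaling and 13 and 2 without the 3 libraries low in chondrocyte markers. They were 2 and 1 with the skeletal muscle score as a covariate and 0 and 0 with the osteoclast score. In these 4 fits 5.31%, 6.32%, 1.11% and 0% of all tested genes were called lower. Of the genes named here as called, *Ttc19*, *Sfxn1*, *Tfb2m*, *Sdha*, *Ndufs1* and *mt-Nd2* lost their calls with the muscle score, and all lost them with the osteoclast score. Of 9 assembly factors of complex III, 3 were called lower and 1 higher: *Ttc19*, which clears Rieske fragments, fell by 0.35 on the log2 scale (SE 0.08, adjusted p = 0.00735), and *Sfxn1*, a mitochondrial serine carrier, rose by 0.84 (SE 0.20, adjusted p = 0.00565). Of 26 tested assembly factors of complex IV, edgeR called 5 lower and 0 higher (0 higher also at an unadjusted p under 0.05). *Taco1*, a translational activator of *mt-Co1*, fell by 0.66 on the log2 scale (SE 0.12, adjusted p = 0.00130), and *Fdxr*, the higher factor with the smallest p, had a log2 difference of 0.37 (SE 0.22, adjusted p = 0.232). Of 10 genes of ATP synthase assembly and regulation, 3 were called lower and 1 higher. *Atpaf1*, an assembly chaperone of the catalytic head, fell by 0.59 on the log2 scale (SE 0.10, adjusted p = 0.00115), and *Slc25a5*, an ADP/ATP carrier of non-muscle tissues, rose by 0.62 (SE 0.12, adjusted p = 0.00165).

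Of 16 regulators of mitochondrial biogenesis, edgeR called 5 lower and 0 higher (1 higher at an unadjusted p under 0.05). *Tfb2m*, which opens mitochondrial promoters for transcription, fell by 0.49 on the log2 scale (SE 0.10, adjusted p = 0.00318), and *Pprc1*, a coactivator, had a log2 difference of 0.27 (SE 0.10, adjusted p = 0.0588). All 4 genes of complex II were called lower, led by *Sdha*, its flavoprotein, which fell by 0.57 (SE 0.13, adjusted p = 0.00525). Of 7 nuclear core subunits of complex I, 3 were called lower, led by *Ndufs1* (log2 difference −0.57, SE 0.12, adjusted p = 0.00361). Without the 3 libraries low in chondrocyte markers, 1 of the 4 genes of complex II and 1 of the 7 of complex I were called lower. The counts were then 3, 3 and 2 for the factors of complexes III and IV and ATP synthase, and 3 for the regulators. With library totals in place of TMM scaling 1 gene of complex II and 2 of complex I were called lower. Of 9 other genes of the mitochondrial genome, 3 were called lower, led by *mt-Nd2* (−0.66, SE 0.20, adjusted p = 0.0241). Without control replicate 6 or 8 the adjusted p of *mt-Nd2* was 0.0576 and 0.0770, and without the 3 libraries low in chondrocyte markers none of the 9 was called and that of *mt-Nd2* was 0.107. The median log2 fold change was −0.41 for complex II, −0.38 for the complex I subunits, −0.57 for the other mitochondrial genes, −0.33 for the ATP synthase factors, −0.27 and −0.25 for the factors of complexes III and IV and −0.19 for the regulators, beside −0.40 for the members and −0.02 for all genes. No test of one list against another was made.

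The remaining markers are given as counts, beside the 12% of all genes called higher. Called higher were 8 of 11 tested macrophage, 7 of 13 osteoblast and osteocyte, 6 of 7 mast cell, 3 of 13 chondrocyte, 2 of 10 neutrophil and 2 of 4 salivary gland markers, and 0 of these lists' genes were called lower by edgeR, also at an unadjusted p under 0.05. Without the 3 libraries low in chondrocyte markers, 3 of 11 macrophage, 6 of 13 osteoblast and osteocyte and 7 of 8 mast cell markers were called higher. So were 2 of 13 chondrocyte, 2 of 11 neutrophil and 0 of 4 salivary gland markers, beside 1292 of all 16525 genes tested in that fit. No adipocyte, erythroid, endothelial or Schwann cell and neuron marker was called by edgeR, with 1 adipocyte, 4 erythroid and 1 Schwann cell and neuron marker lower, and 0 of these lists' genes higher, at an unadjusted p under 0.05. The salivary gland calls rest on LOXL2_KO replicate 9, where the list summed to 3648 CPM against a group median of 47.0 CPM and 89.3 CPM in control. Without that library none of these markers was called higher and 1 was called lower.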

How the data were processed

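RNA-seq was made of TMJ condylar heads from 8 control and 12 *Loxl2* knockout-labelled mice, 1 library each, grouped by sample title. The authors extracted RNA with TRIzol, sequenced paired-end reads on an Illumina NovaSeq, trimmed them with the provider's in-house program, aligned them to mm10 and counted them with featureCounts; the deposited values are raw read counts per Ensembl gene. The aligner, annotation release, use of strand and treatment of reads with several positions are not given in the sources used here, so overlapping genes and near-identical copies are uncertain. Symbols and coordinates (1-based, GRCm38/mm10) came from GENCODE M21 by identifier for 54495 of 54532 genes.

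Counts were tested with edgeR 4.0.16 in R 4.3.3 (filterByExpr, TMM, quasi-likelihood F-test, group alone, two-sided, Benjamini-Hochberg over 15984 genes, threshold 0.05), and SE was derived from the F statistic. The study's test, the DESeq2 Wald test (1.42.0), was an alternative. CPM use TMM-scaled library sizes. Isoform ratios (log2, pseudocount 2 CPM) and library measures were compared by exact permutation over all 125970 assignments of libraries to groups. A marker score is the mean log2 CPM (prior count 2) of a list's tested genes. Library totals of 11153820 to 27045668 counts set the precision. No 2 libraries had identical counts (smallest chi-square 32.9 per degree of freedom over 190 pairs). The scripts were tested on simulated data. Similar transcripts were found with blastn 2.17.0.

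Members and lists were chosen with earlier results of these data known, and the list of all members is described by counts and medians, without a test. Full values are given for genes of the mitochondrial genome, for the 4 smallest and the largest p in each nuclear complex and for the isoform pairs. In each pathway list the gene with the smallest p in each direction is named. Other genes were named after their values were seen. *Pet117* and *Sco2* of the complex IV assembly list had no count, and *Coa1*, *Fdx2* and *Ahsp* were not matched by symbol. The labels give no sequencing batch.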

Additional observations from a re-analysis of the deposited data

Results flagged for a closer look

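Control replicate 6 stood far above the other 7 control libraries for several small nuclear subunits. Its value was 229 CPM for *Atp5k* against 91.5 CPM in the next library, 303 against 194 CPM for *Atp5mpl*, 453 against 313 CPM for *Cox7b*, 654 against 418 CPM for *Cox7c*, 392 against 260.5 CPM for *Uqcr11*, 329 against 231 CPM for *Uqcrb* and 856 against 599.7 CPM for *Uqcrq*. In control replicate 8 *mt-Atp8* was at 11.3 CPM against 5.46 CPM in the next library. These 8 were the flags among 54 sets of control values compared by Dixon's criterion, which chance alone meets in about 1 of 20 independent sets, and members of the same library are not independent. The 12 libraries labelled knockout are too many for this criterion and were not compared by it. Both libraries are among the 3 with the lowest chondrocyte scores. The cause was not tested.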

How the results depend on the processing

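The number of members called lower, 5 in the main comparison, was 9 by the DESeq2 Wald test, 3 with library totals alone, 2 with no filter, 0 with the skeletal muscle or the osteoclast score as covariate and 2 without the 3 libraries that have the lowest chondrocyte scores, an alternative chosen after seeing the data. The number called higher, 1, was 2 after removal of a gene length trend and 0 with either score. Both counts stayed within 1.5 times of the main ones with DESeq2 size factors, upper-quartile factors, a mean of at least 1 CPM, protein-coding genes alone, removal of a GC trend, robust dispersion and scaling without the mitochondrial genome. Replicate numbers did not pair the libraries: deviations from the group means of libraries with the same number correlated at −0.36 to 0.17 over 8 pairs. In the 16 libraries with shared numbers, the replicate block gave 1 member lower and 2 higher, against 9 lower and 2 higher in the same libraries without block terms, and turned *mt-Atp8* to 0.13. Of all genes tested in these 16 libraries, 4.41% were called lower with the block and 9.54% without it. Leaving out each library in turn gave 2 to 18 members lower, 1 to 2 higher, 2 to 4 isoform pairs whose ratio differed, against 2, and −0.72 to 0.081 for *mt-Atp8*. A difference of medians left 1 pair, as did omission of the 3 libraries, and a pseudocount of 0.5 or the 16 libraries left 2.

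With the osteoclast score as covariate, in a fit that called none of all genes, these log2 differences among the genes given singly changed sign: *Cox7c* 0.00086, *Atp5c1* 0.0075, *Atp5g2* 0.013, *mt-Nd2* 0.017, *Atp5b* 0.024, *Atp5f1* 0.030, *Cox6a2* 0.033, *Cycs* 0.052, *mt-Cytb* 0.056, *Atp5a1* 0.055, *Cox8b* 0.058, *Uqcrb* 0.076, *mt-Atp6* 0.10, *Uqcr10* 0.10, *mt-Atp8* 0.10, *Cox7a2* 0.11, *Cox4i1* 0.12, *mt-Co2* 0.12, *Atp5g1* 0.13, *Atp5g3* 0.19, *Atp5d* 0.19, *Cox7a1* 0.21 and *mt-Co3* 0.27. The skeletal muscle score turned *Atp5d* to 0.057, *mt-Atp8* to 0.062 and *Cox7a2l* to 0.0089, library totals alone turned *Cox7a2l* to 0.020, and omission of the 3 libraries turned *mt-Atp6* to 0.15 and *mt-Atp8* to 0.25. *mt-Nd2* also lost its call after removal of a GC trend, with no filter and with the replicate block (adjusted p = 0.0679 to 0.109), and *Ttc19* with library totals alone and with the block (0.0558 and 0.0591). The cause of these changes was not tested. Depth limits the low genes: *mt-Atp8* had 7 to 148 and *Cox6b2* 6 to 61 counts per library, while *Cox4i2* had 51 to 261.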
